A study of Acromyrmex echinatior with 18 samples.

Results

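The RNA editing sites of 4 cell-surface genes are described here in Acromyrmex echinatior, a leaf-cutting ant. The gene mmd (Aech_17011) is annotated as the metalloproteinase ADAM11, marked as a fragment, and is paired with the Drosophila gene mmd. Aech_02795 is annotated as Neural-cadherin, Aech_07318 as Teneurin-3, and Aech_09520 as a Down syndrome cell adhesion molecule paired with Drosophila Dscam3. They were chosen by gene identifier from the authors' table of editing sites, and they hold 78 of its 17229 sites and make up 4 of the 1433 genes with a site. Of these 78 sites, 64 lay in mmd, 12 in Dscam3, 1 in Neural-cadherin and 1 in Teneurin-3. The names come from the deposited annotation, and expression in neurons was not measured, because the RNA came from whole heads.

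RNA was sequenced from small workers, large workers and gynes, the young females that can become queens. Each caste was sampled once from each of 3 colonies, Ae322, Ae356 and Ae363, called A, B and C below, so that there were 3 RNA libraries per caste and 9 in all. A library held poly(A) RNA of pooled heads, 200 for small workers, 50 for large workers and 50 for gynes, read with a strand-specific protocol. DNA of the remaining bodies, pooled in the same way, gave 9 matched DNA libraries. All ants came from colonies collected in Panama and kept in the laboratory, with no treatment and with no age given, and the libraries of a caste differ by colony, so their spread is one of pools and not of ants. In pooled heads, fewer cells that use a transcript and less of it per cell cannot be told apart.

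In animals the most frequent editing is the deamination of adenosine to inosine by ADAR enzymes, which act on double-stranded RNA. Sequencing reads inosine as G, so these sites appear as A-to-G changes, and they often lie close together where inverted repeats in introns or untranslated regions fold back on themselves. Transcripts of the nervous system are well-known ADAR targets in insects. A G-to-A change is not made by ADAR.

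The editing level is the share of a site's reads that carry the edited base. Reads given for several sites together are sums of the reads at each site, so a read that covers several sites is counted at each. Over all sites of the table a library had between 479998 reads (large workers, colony B) and 1037408 reads (small workers, colony B), and the 78 sites received between 1364 reads in gynes of colony C and 4534 in small workers of colony C. The median number of reads per site among the 78 was 36.5, 31.5 and 38 in small workers of colonies A, B and C, 33, 9.5 and 19 in large workers, and 12.5, 13.5 and 10 in gynes. By these medians a level in gynes or in large workers of colony B rests on fewer reads than one in small workers. The Teneurin-3 site was an exception. It had 767 reads in large workers of colony B and 713 and 735 in small workers of colonies A and C. Of the 78 sites, 32 had at least 10 reads in all 9 RNA libraries and entered the site tests, which ran over 5720 sites of the whole table. The 32 comprised 27 sites of mmd, 3 of Dscam3 and the single sites of Neural-cadherin and Teneurin-3.

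DNA reads were counted at the same sites. None carried the edited base, with 0 of 15595 at the mmd sites and 0 of 3644 at Dscam3. A read is counted at each site it covers, so these sums over sites give no limit on a share. The median depth of a site in 1 DNA library was 27 reads in mmd and 33 in Dscam3. At that depth 0 edited reads allow up to 11.1% and 9.09%. Over the 9 DNA libraries together the count was 0 of 288 at the Neural-cadherin site, which allows up to 1.04%. At Teneurin-3 it was 0 of 246, which allows up to 1.22%. At the median depth of 1 DNA library the limits of these sites are 8.82% and 10.7%. Sites with edited DNA reads do not occur anywhere in the table, so this zero is a property of the sites listed and does not measure a background. These limits cover counting error only, as do the Wilson intervals below, because the reads carry no molecular identifiers. The intervals of caste differences below come from limma and rest on the spread of levels between libraries.

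ADAM proteins are membrane proteins with a metalloproteinase and a disintegrin domain. In mammals ADAM11 and its closest relatives lack the catalytic motif of the protease, and in mice Adam11 is known from the terminals of cerebellar basket cells. All 64 sites of mmd were A-to-G changes on the plus strand of scaffold 821 and lay in introns. Of them, 5 were also annotated as transposable element sequence. The 64 sites spanned positions 33336 to 41005, a distance of 7670 bases, and no other site of the table lay on that scaffold. By number of tested sites mmd ranked 12 among 700 tested genes, and by mean level over tested sites it ranked 115. None of the sites touches the coding sequence in this annotation.

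The mmd sites fell into 3 clusters separated by more than 500 bases. The first, from 33336 to 34252, held 5 sites, 4 of them annotated as transposable element sequence. It had 233 RNA reads in all, and none of its sites was deep enough to be tested. The second, from 35216 to 36072, held 26 sites with 4177 reads, of which 26.5% were edited. The third, from 40554 to 41005, held 33 sites within 452 bases and 10956 reads, of which 17.6% were edited. These read counts are sums over sites, in which a read counts at each site it covers. Both shares include thinly read sites, since 7 sites of the second cluster and 20 of the third were tested. Over the tested sites alone, mean levels per library ran from 10.3% to 24.5% in the second cluster and from 13.7% to 17.6% in the third. Neighbouring sites were often adjacent or nearly so. Of the 63 gaps between successive sites, 13 were 1 base and 29 were at most 5 bases, and the median gap was 7 bases. In all, 10 runs of adjacent edited adenosines, 8 of 2 sites, 1 of 3 and 1 of 4, held 23 of the 64 sites.

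Over the 9 RNA libraries together, 3107 of 15366 reads at mmd sites were edited, or 20.2%. Levels of single sites ran from 2.22% at 40690 to 85.4% at 40968, with a median of 23.5%. Of the 64 sites, 9 were edited in at least 50% of reads, 36 in 10 to 50% and 19 in fewer than 10%. The authors marked 13 of the 64 sites as edited in all 9 libraries and 52 in at least 5. Many of the sites with the highest levels lay in thinly covered stretches, as at 35518, where 83.8% of its reads were edited, and at 35632, where 82.4% were. These 2 sites were below 10 reads in some libraries and stand outside the tests. Over the 27 tested sites the median of the mean levels was 8.22%, with quartiles of 5.51% and 21.3%, and the median over 577 other tested intronic A-to-G sites was 8.95%, with quartiles of 4.40% and 20.7%.

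**Figure D1:**
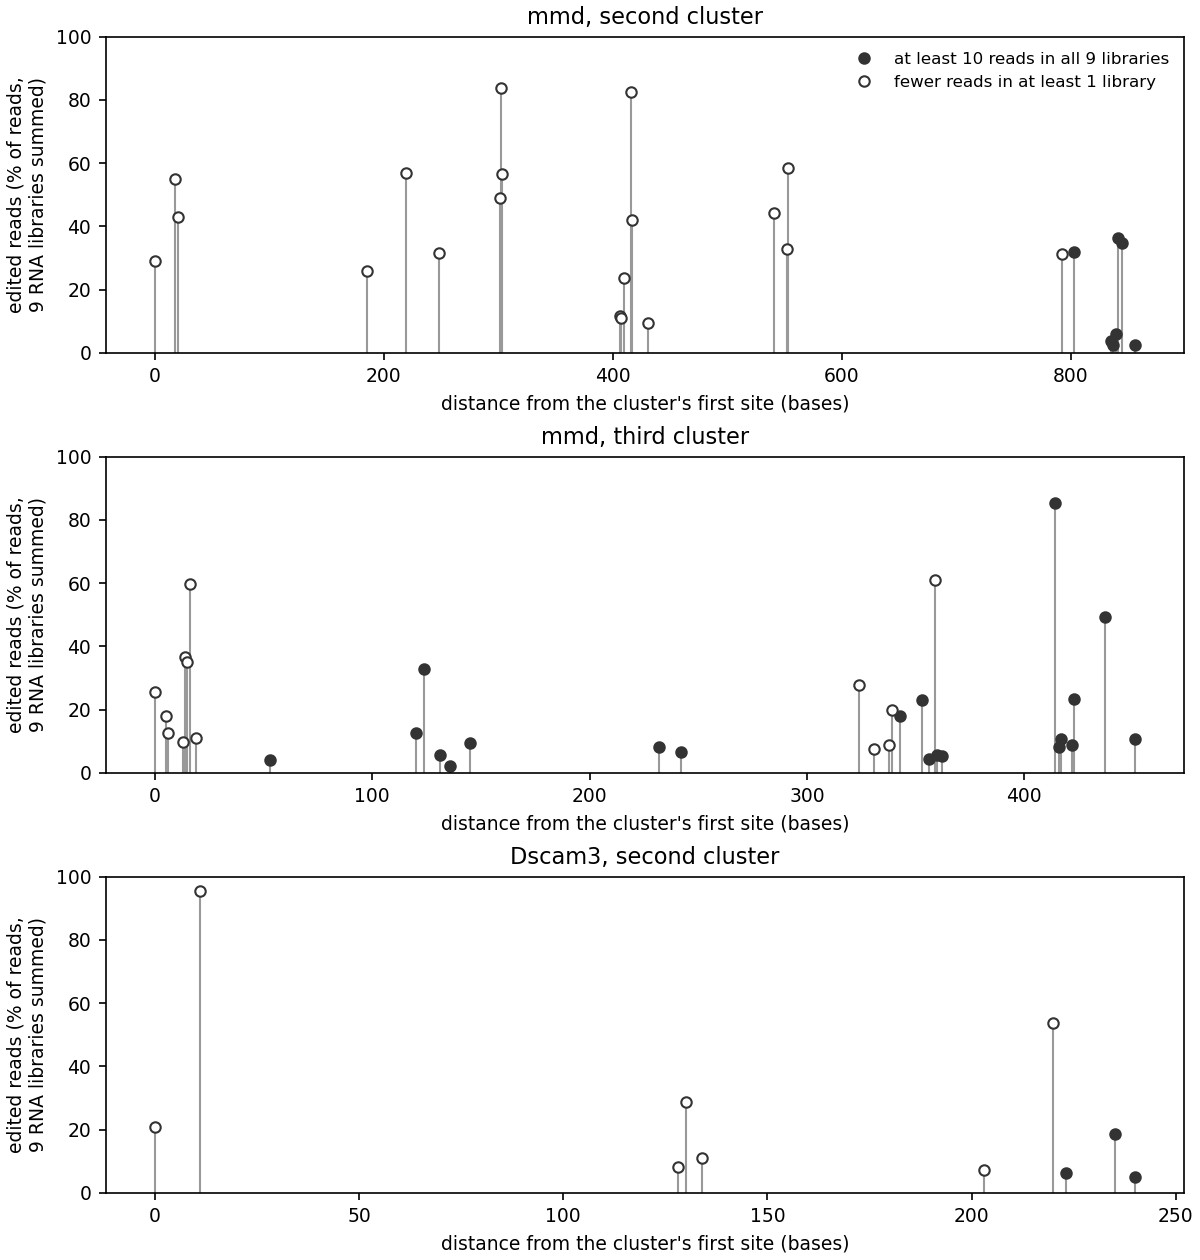
Editing level of each site, as the percentage of reads with the edited base over the 9 RNA libraries summed, against the distance in bases from the first site of its cluster, for the second and the third cluster of mmd and the second cluster of Dscam3. Filled points are sites with at least 10 reads in all 9 libraries and open points have fewer in at least 1. In the third cluster of mmd the site edited in 85.4% of reads stands 2 bases from one edited in 8.19%.

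In 5 pairs of mmd sites, adenosines only a few bases apart differed in level in every library or in all but 1. The site at 40968 was edited at 81.9% ± 12.6 and the site 2 bases further, at 40970, at 7.25% ± 6.62 (mean ± SD over the 9 libraries), and the first was higher in 9 of 9 libraries. Site 36057 was edited at 40.0% ± 15.0 and site 36055, 2 bases before it, at 6.08% ± 7.89, higher at 36057 in 9 of 9. The adjacent adenosines 40976 and 40977 were edited at 8.22% ± 3.93 and 22.6% ± 6.08, with the second higher in 9 of 9. Site 40678 at 34.3% stood above 40674 at 13.7% in 9 of 9 libraries, and 40907 at 19.97% stood above 40910 at 4.09% in 8 of 9, with 1 library equal.

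Among the 4 genes, 14 pairs of successive tested sites lay at most 5 bases apart, 13 of them in mmd. Levels within a pair were compared by an exact two-sided sign-flip test over the 9 libraries, whose smallest possible p is 0.00391. Of the 14 pairs, 6 passed at a Benjamini-Hochberg adjusted p of 0.05, namely the 5 above and 1 in Dscam3, described below. Their adjusted p was 0.0109, or 0.0182 for 40907 and 40910. The higher site was the second in 3 of the 6 pairs and the first in 3. The 8 other pairs differed by between 0.269 and 5.79 points on average and did not pass. With reads of 90 bases, sites this close share most of their reads, so the 2 levels of a pair rest largely on the same molecules.

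**Figure D2:**
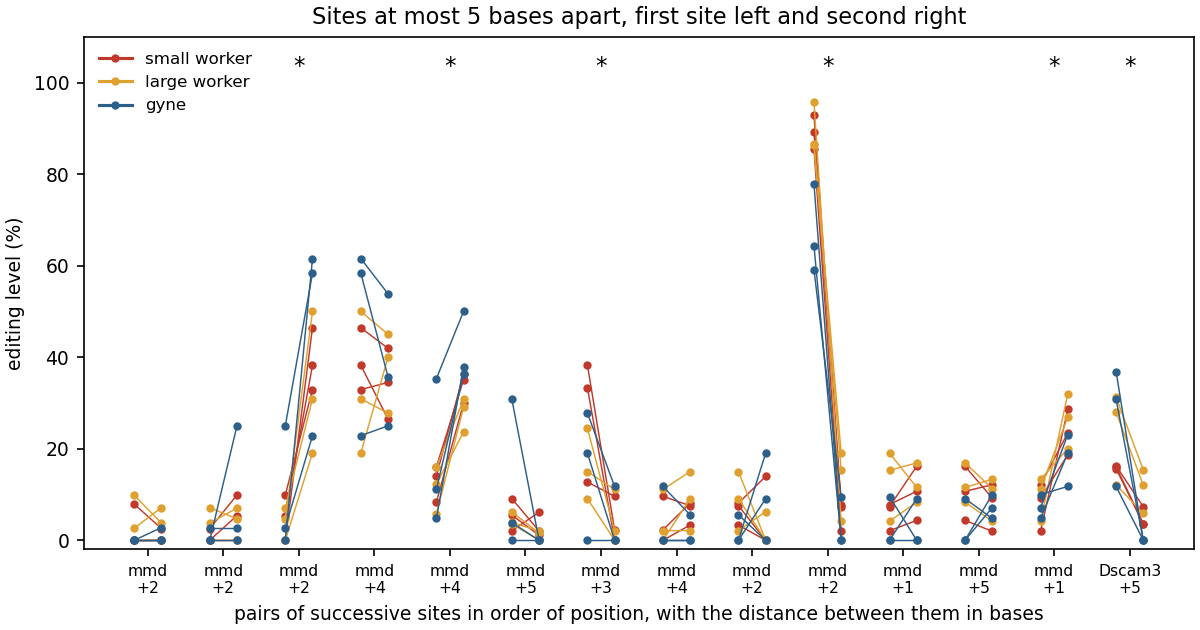
Editing level in percent of the first and the second site of each of the 14 pairs of tested sites at most 5 bases apart, in order of position, with the gene and the distance in bases below. Each line is 1 RNA library, coloured for small worker, large worker and gyne, and an asterisk marks the 6 pairs past an adjusted p of 0.05. In the tenth pair, 40968 and 40970, all 9 lines fall by a wide margin.

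The runs of adjacent adenosines were also uneven in their summed levels, including where depth did not allow a test. In the run of 4 from 40567 to 40570 the summed level was 9.70% at the first base and 59.8% at the last. In the run of 3 from 35517 to 35519 it was 49.1% at the first base and 83.8% at the middle one. At 35632 and 35633 it was 82.4% and 42.1%. At 40913 and 40914 it was 61.0% and 5.62%. Other adjacent sites lay close in level, among them 35622 and 35623 at 11.5% and 10.9%, 40970 and 40971 at 8.19% and 10.8%, and 40568 and 40569 inside the run of 4 at 36.5% and 35.2%.

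The order of the mmd sites was similar in the castes. Across the 27 tested sites, mean levels in small workers and large workers had a Pearson r of 0.968, those in small workers and gynes 0.921, and those in large workers and gynes 0.886. Between single libraries r ran from 0.652 to 0.967. These values are descriptions, since neighbouring sites share reads and 40968 lies far above the rest in each caste.

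The first caste question was whether the mean level of mmd differed. Over its 27 tested sites it was 17.2%, 17.7% and 17.4% in small workers of colonies A, B and C, 18.2%, 13.3% and 16.7% in large workers, and 16.1%, 16.5% and 15.0% in gynes. The 3 small worker values lay above the 3 gyne values, and the large worker values spanned both, with the lowest in the shallowest library, that of colony B. The means were 17.4% ± 0.239 in small workers, 16.03% ± 2.504 in large workers and 15.9% ± 0.740 in gynes (SD, n = 3 each). Small workers stood 1.58 points above gynes, with a 95% interval of −1.90 to 5.07 from limma over 700 genes and an adjusted p of 0.761. The exact permutation p was 0.1, the smallest that 3 against 3 libraries allow. Non-overlap of this kind was seen in 25.1% of the 700 genes. Over the 700 genes the small worker minus gyne difference had a median of 1.83 points and a mean of 2.74 points. Relative to that mean the difference of mmd was −1.16 points (limma adjusted p = 0.730).

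Large workers stood 0.167 points above gynes in mmd (95% interval −3.32 to 3.65, limma adjusted p = 1). Small workers stood 1.41 points above large workers (−2.07 to 4.90, limma adjusted p = 0.785). Neither interval leaves out a difference of 3 points. The gene test by limma called 0 of the 4 genes in any contrast, and 0 of them had an unadjusted p under 0.05, which 17.0% of the 700 genes had for any difference and 20.4%, 8.71% and 11.7% for small workers against gynes, large workers against gynes and small workers against large workers. The background of calls over 700 genes was 1.14% for any difference, 2.29% for small workers against gynes, 0.0% for large workers against gynes and 0.0% for small workers against large workers.

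No site of mmd, and none of the other 3 genes, passed the test of any caste contrast, which was a quasi-binomial logistic model of edited and other reads with Benjamini-Hochberg adjustment over 5720 sites. It called 0 of the 32 tested sites of the 4 genes. The background of calls over 5720 sites was 6.38% for any difference among castes, 8.23% for small workers against gynes, 0.472% for large workers against gynes and 0.874% for small workers against large workers. The last 2 shares depend on single libraries, with 27 sites for large workers against gynes but 5 without large worker A, and 50 sites for small workers against large workers but 12 without large worker C. At an unadjusted p under 0.05 the quasi-binomial counts among the 32 sites were 2, 4, 3 and 0 for any difference and the 3 contrasts in that order, against 20.5%, 22.3%, 10.6% and 12.3% of all 5720 sites. Limma on arcsine-square-root levels also called 0, with 4, 5, 7 and 0 at an unadjusted p under 0.05, against 13.7%, 16.1%, 8.99% and 9.04% of all sites. The zero of limma has a background of 0 calls among all 5720 sites, as has that of the quasi-binomial fit with the colony as a replicate block.

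The site nearest to the threshold was 40968, which is also the most highly edited tested site and the one with the largest difference between small workers and gynes. Its edited reads were 41 of 48, 52 of 56 and 58 of 65 in small workers, 58 of 67, 19 of 22 and 22 of 23 in large workers, and 14 of 18, 13 of 22 and 9 of 14 in gynes. All 6 worker libraries were above all 3 gyne libraries. Mean levels were 89.2% ± 3.72 in small workers, 89.5% ± 5.30 in large workers and 67.1% ± 9.65 in gynes (SD, n = 3 each). For small workers against gynes, a difference of 22.1 points, the quasi-binomial unadjusted p was 0.00682 and the adjusted p was 0.0693, and over the alternatives the adjusted p ran from 0.0593 to 0.333. For large workers against gynes the adjusted p was 0.352. Summed over all libraries 286 of 335 reads were edited, 85.4% with a Wilson 95% interval of 81.2 to 88.8%.

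Near the end of the third cluster 2 further sites had unadjusted p under 0.05, in opposite directions. At 40991 the edited reads were 30 of 65, 54 of 87 and 44 of 79 in small workers, 46 of 82, 5 of 36 and 19 of 30 in large workers, and 6 of 25, 11 of 26 and 7 of 19 in gynes. Small workers were above gynes in all libraries, at 54.6% ± 8.01 and 34.4% ± 9.40, while large workers ranged most widely, at 44.4% ± 26.7 (SD, n = 3 each). The quasi-binomial adjusted p for small workers against gynes was 0.145. At 41005, 14 bases on, the edited reads were 9 of 81, 5 of 93 and 7 of 82 in small workers, 4 of 96, 7 of 33 and 2 of 32 in large workers, and 7 of 27, 5 of 31 and 7 of 26 in gynes. Small workers were below gynes here, at 8.34% ± 2.87 against 22.99% ± 5.96, a difference of −14.7 points (quasi-binomial adjusted p = 0.111).

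The most deeply read tested site of mmd was 40796, with 33 to 166 reads per library. Edited reads were 14 of 160, 5 of 150 and 18 of 166 in small workers, 9 of 165, 2 of 51 and 6 of 56 in large workers, and 3 of 63, 0 of 47 and 1 of 33 in gynes. The levels were 7.64% ± 3.88 in small workers, 6.70% ± 3.56 in large workers and 2.597% ± 2.41 in gynes (SD, n = 3 each), and the quasi-binomial adjusted p for small workers against gynes was 0.319. Small worker and gyne libraries overlapped at this site.

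**Figure D3:**
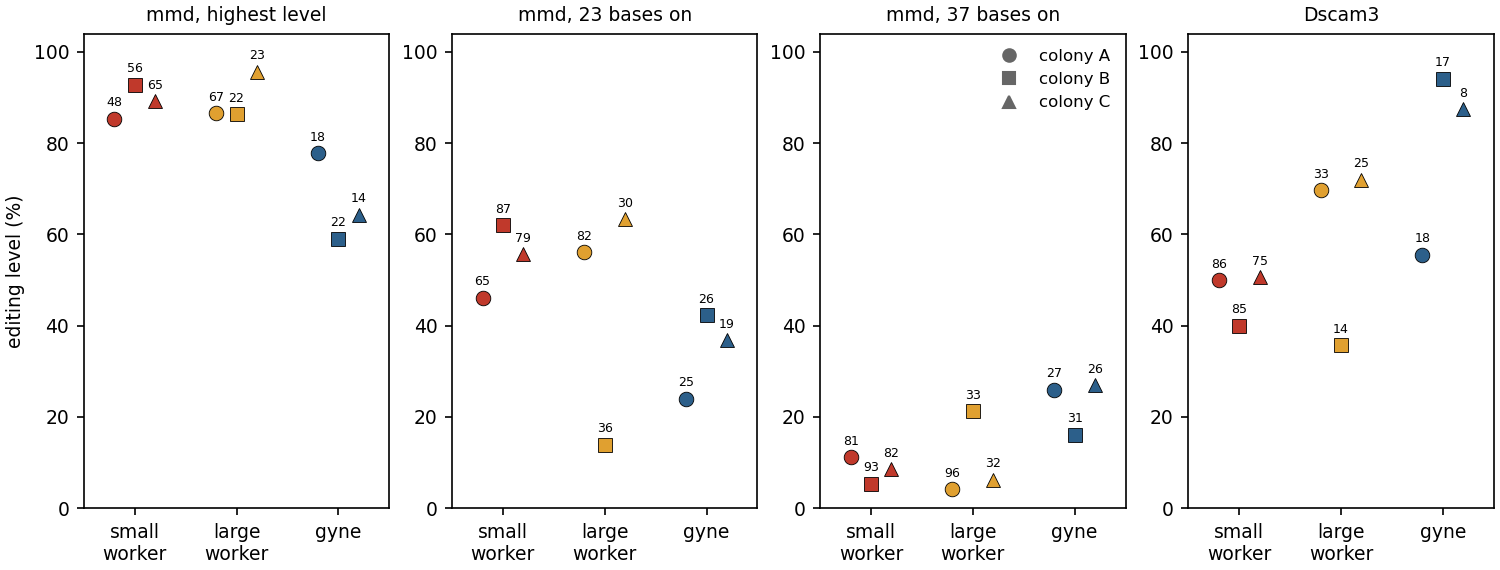
Editing level in percent in each RNA library at 3 sites of mmd and 1 of Dscam3, by caste with small workers left, large workers in the middle and gynes right, with marker shapes for colonies and the number of reads above each point. The panels show mmd 40968, 40991 and 41005 and Dscam3 11318. Gynes lie below small workers at 40968 and 40991 and above them at 41005 and 11318.

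Of the 27 tested mmd sites, 17 were on average higher in small workers than in gynes and 10 lower, against 74.6% of all 5720 tested sites higher. The same count of 17 was higher in large workers than in gynes, against 62.4% of all tested sites, and 14 were higher in small workers than in large workers, against 63.8%. In 3 mmd sites, 40690, 40968 and 40991, all small worker levels exceeded all gyne levels, and in 1, 41005, all were below. The background over all tested sites was 22.0% above and 1.61% below. The site at 40690 belongs to the 3 because 0 of 29, 0 of 22 and 0 of 14 gyne reads were edited, against 6 of 98, 1 of 91 and 2 of 99 in small workers, and this depth does not separate the gyne level from the small worker mean of 3.08%.

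Reads over the mmd sites were counted as well. Per 1000000 reads over all sites of the table, mmd sites received 2900 ± 700.2 in small workers, 2628 ± 810 in large workers and 1443 ± 101 in gynes (SD, n = 3 each). Both worker castes lay above gynes without overlap, by a ratio of 2.01 for small workers and 1.82 for large workers. Each exact permutation p was 0.1, the smallest possible, and 0.233 after adjustment over 21 comparisons of reads. The share of all genes with such non-overlap of reads was not counted, here or for the genes below. These orders of castes in reads are therefore descriptions. The third cluster had 2.30 times as many such scaled reads in small workers as in gynes and 1.95 times as many in large workers, without overlap, while in the second cluster the castes overlapped. The ratio of reads in the third cluster to reads in the second cluster was 4.004, 3.58 and 2.16 in small workers of colonies A, B and C, 3.51, 3.13 and 1.35 in large workers, and 3.49, 2.82 and 0.882 in gynes. Colony C had the lowest ratio in each caste. The clusters lie in introns in this annotation, so these reads are not taken as a measure of the mature mmd messenger RNA. Reads over exons were not examined.

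**Figure D4:**
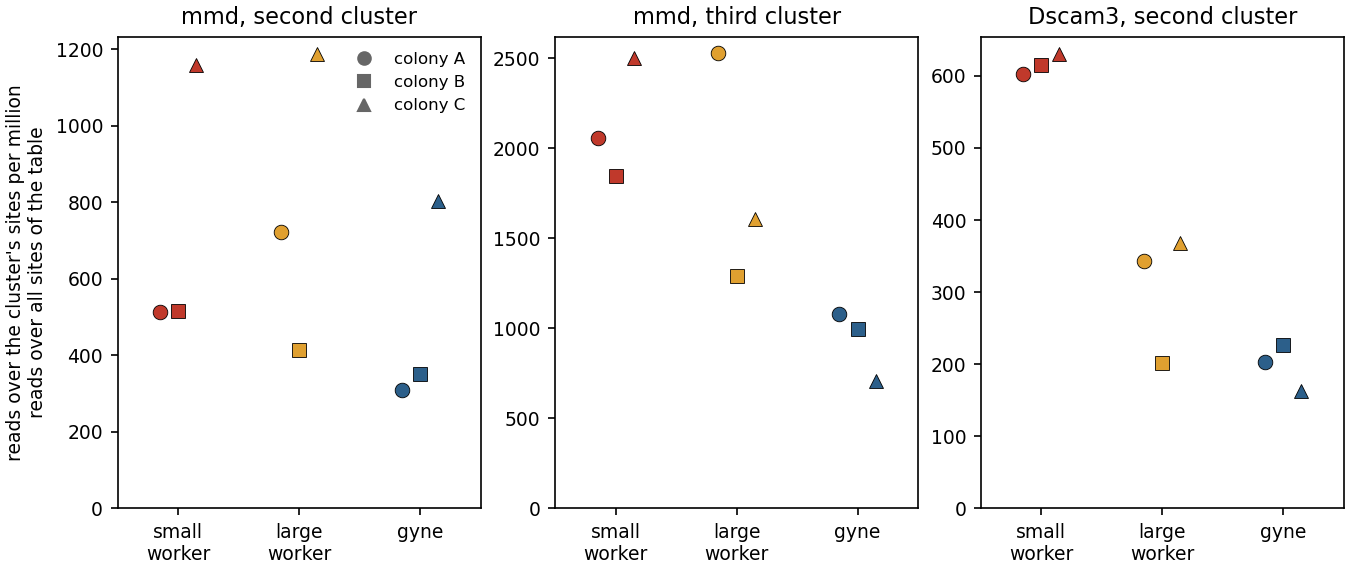
Reads over the sites of a cluster per 1000000 reads over all sites of the table in each RNA library, for the second and the third cluster of mmd and the second cluster of Dscam3, by caste with small workers left, large workers in the middle and gynes right, and with marker shapes for colonies. In the second cluster of mmd colony C is highest in each caste, and in the third cluster and in Dscam3 all 3 small worker libraries lie above all 3 gyne libraries.

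Neural-cadherin is a calcium-dependent adhesion protein that binds its own kind on neighbouring cells, and in flies it acts in axon targeting. Its only site lay at position 155581 on the minus strand of scaffold 135, in an intron, and the nearest other site of the table was 53474 bases away. It was a G-to-A change, a kind that made up 451 of the 17229 sites, or 2.62%, where A-to-G made up 94.5%. Edited reads were 6 of 219, 10 of 175 and 8 of 208 in small workers, 12 of 162, 5 of 98 and 6 of 113 in large workers, and 0 of 95, 2 of 67 and 2 of 38 in gynes. The authors marked the site as edited in 8 of 9 libraries, all but gynes of colony A. The zero in that library allows a level of up to 3.16% by the limit of 3 counts.

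The castes overlapped at this site, with 4.10% ± 1.503 in small workers, 5.94% ± 1.28 in large workers and 2.75% ± 2.64 in gynes (SD, n = 3 each). Summed over the libraries 51 of 1175 reads were edited, 4.34% with a Wilson 95% interval of 3.32 to 5.66%. Large workers stood 3.19 points above gynes, with a 95% interval of −0.723 to 7.10 and a limma adjusted p of 0.589. Small workers stood 1.35 points above gynes (−2.56 to 5.26, limma adjusted p = 0.536) and differed from large workers by −1.84 points (−5.75 to 2.07, limma adjusted p = 0.745). Reads over the site per 1000000 reads of the table were 218 ± 43.9 in small workers, 213 ± 8.98 in large workers and 108 ± 38.3 in gynes. Both worker castes lay above gynes without overlap, at exact permutation p = 0.1 each and 0.233 adjusted (SD, n = 3 each).

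Teneurins are large transmembrane proteins that match synaptic partners in flies and bind latrophilins across the synapse in mammals. The single site of the Teneurin-3 gene lay at position 1420887 on the plus strand of scaffold 367, in the 3′ UTR and within a transposable element, 748722 bases from the nearest other site. It was the most deeply read of the 78, with 384 to 857 reads per library, and the authors marked it as edited in all 9. Edited reads were 60 of 713, 65 of 857 and 58 of 735 in small workers, 50 of 682, 53 of 767 and 28 of 636 in large workers, and 34 of 535, 35 of 670 and 19 of 384 in gynes. As levels these were 8.42%, 7.58% and 7.89% in small workers, 7.33%, 6.91% and 4.40% in large workers, and 6.36%, 5.22% and 4.95% in gynes. The small worker values lay above all large worker and gyne values, and the large worker and gyne values overlapped. Of the 700 genes, 25.1% had all small worker levels above all gyne levels, and 15.9% had them above all large worker levels.

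Means were 7.96% ± 0.420 in small workers, 6.21% ± 1.58 in large workers and 5.51% ± 0.746 in gynes (SD, n = 3 each). Small workers stood 2.45 points above gynes (95% interval −0.590 to 5.50), with a limma adjusted p of 0.427 in the gene test and an exact permutation p of 0.1. In the quasi-binomial site test the unadjusted p was 0.0327 and the adjusted p 0.179. They stood 1.75 points above large workers (−1.30 to 4.79, limma adjusted p = 0.614), and large workers stood 0.706 points above gynes (−2.34 to 3.75, limma adjusted p = 0.921). Summed over all libraries 402 of 5979 reads were edited, 6.72% with a Wilson interval of 6.12 to 7.39%. In reads over the site per 1000000 reads of the table the order of castes was another one, with 827 ± 63.1 in small workers, 1249 ± 349 in large workers and 870 ± 196 in gynes. Small workers lay below large workers without overlap (ratio 0.662, exact permutation p = 0.1, adjusted 0.233), and each of them overlapped with gynes.

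Dscam proteins are immunoglobulin-domain receptors that bind their own kind. In flies the family member Dscam1 serves the self-recognition of neurites. All 12 sites of Dscam3 were A-to-G changes in the 3′ UTR on the minus strand of scaffold 132, between 10272 and 11338, and the nearest other site of the table lay 123968 bases away. They formed 2 clusters. The first comprised 10272 and 10411, with 157 reads in all, and the second ran from 11098 to 11338 with 10 sites and 2627 reads. Over the 9 libraries 534 of 2784 reads were edited, or 19.2%.

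Levels of single Dscam3 sites ran from 5.04% to 95.5%. At 11109, edited reads were 1 of 1, 20 of 22 and 2 of 2 in small workers, 2 of 2, 1 of 1 and 1 of 1 in large workers, and 6 of 6, 1 of 1 and 8 of 8 in gynes. That is 42 of 44 reads, 95.5% with a Wilson interval of 84.9 to 98.7%, but only 1 library had more than 8 reads. The thinly read sites 10272, 10411 and 11098 had summed levels of 26.8% of 56 reads, 12.9% of 101 reads and 20.9% of 67 reads, and 11301 had 7.37% of 217 reads. Between 11226 and 11232, 3 sites within 7 bases differed, with summed levels of 8.03% at 11226, 28.8% at 11228 and 11.2% at 11232. By caste, 11228 averaged 27.5% ± 5.94 in small workers, 35.8% ± 5.39 in large workers and 20% ± 8.66 in gynes (SD, n = 3 each). The castes overlapped at 11226, with 6.62%, 6.90% and 13.1% in small workers, large workers and gynes, and at 11232, with 10.4%, 11.1% and 12.6%.

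The site at 11318 was the one of Dscam3 in which castes stood furthest apart. Edited reads were 43 of 86, 34 of 85 and 38 of 75 in small workers, 23 of 33, 5 of 14 and 18 of 25 in large workers, and 10 of 18, 16 of 17 and 7 of 8 in gynes. All gyne levels were above all small worker levels, and the large worker levels lay on both sides of them. Means were 46.9% ± 5.98 in small workers, 59.1% ± 20.3 in large workers and 79.1% ± 20.6 in gynes (SD, n = 3 each). With 8 reads in gynes of colony C the site fell below the minimum of 10. At a minimum of 5 reads in all libraries the quasi-binomial unadjusted p for small workers against gynes was 0.00574 and the adjusted p was 0.0753. The direction is opposite to that of most sites of the table, in which small workers were higher.

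Of the 12 sites, 3 were tested. At 11333 edited reads were 13 of 83, 13 of 81 and 13 of 80 in small workers, 4 of 33, 5 of 16 and 7 of 25 in large workers, and 7 of 19, 2 of 17 and 4 of 13 in gynes, with means of 15.99% ± 0.299, 23.8% ± 10.2 and 26.5% ± 13.1 in small workers, large workers and gynes (SD, n = 3 each). The small worker libraries lay close together and the other castes overlapped them. At 11338, 5 bases on, small workers had 3 of 86, 3 of 82 and 6 of 82 edited reads, large workers 2 of 34, 2 of 13 and 3 of 25, and gynes 0 of 20, 0 of 21 and 0 of 14. Small and large workers thus had edited reads in every library, at 4.82% ± 2.16 and 11.1% ± 4.82, and gynes in none (quasi-binomial adjusted p = 0.340 for small workers against gynes, 0.424 for large workers against gynes). The gyne depth does not separate the gyne level from the small worker mean of 4.82%, so editing in gynes is not shown to be absent. Site 11333 was higher than 11338 in 9 of 9 libraries, at 22.1% against 5.30% (exact sign-flip p = 0.00391, adjusted 0.0109). At 11321 the levels were 7.05% ± 0.472 in small workers, 1.80% ± 3.12 in large workers and 7.78% ± 7.52 in gynes (SD, n = 3 each). All small worker levels lay above all large worker levels there (quasi-binomial adjusted p = 0.647), and gynes overlapped both.

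Over these 3 sites the mean level of Dscam3 was 8.63%, 8.84% and 10.4% in small workers of colonies A, B and C, 7.80%, 15.5% and 13.3% in large workers, and 12.3%, 8.92% and 13.0% in gynes. The means were 9.29% ± 0.959, 12.2% ± 3.99 and 11.4% ± 2.19 in small workers, large workers and gynes (SD, n = 3 each), and all castes overlapped. Small workers differed from gynes by −2.13 points (95% interval −7.01 to 2.76, limma adjusted p = 0.682) and from large workers by −2.94 points (−7.82 to 1.94, limma adjusted p = 0.614). Large workers stood 0.815 points above gynes (−4.07 to 5.70, limma adjusted p = 0.984). Reads over Dscam3 sites per 1000000 reads of the table were 653 ± 4.87 in small workers, 324 ± 90.5 in large workers and 206 ± 35.1 in gynes. Small workers lay above gynes by a ratio of 3.17 and above large workers by 2.02, both without overlap (exact permutation p = 0.1 each, adjusted 0.233). Among the 4 genes, Dscam3 had the highest ratio of these scaled reads in small workers to those in gynes, and the mean editing level of small workers was the lowest of the castes in it.

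**Figure D5:**
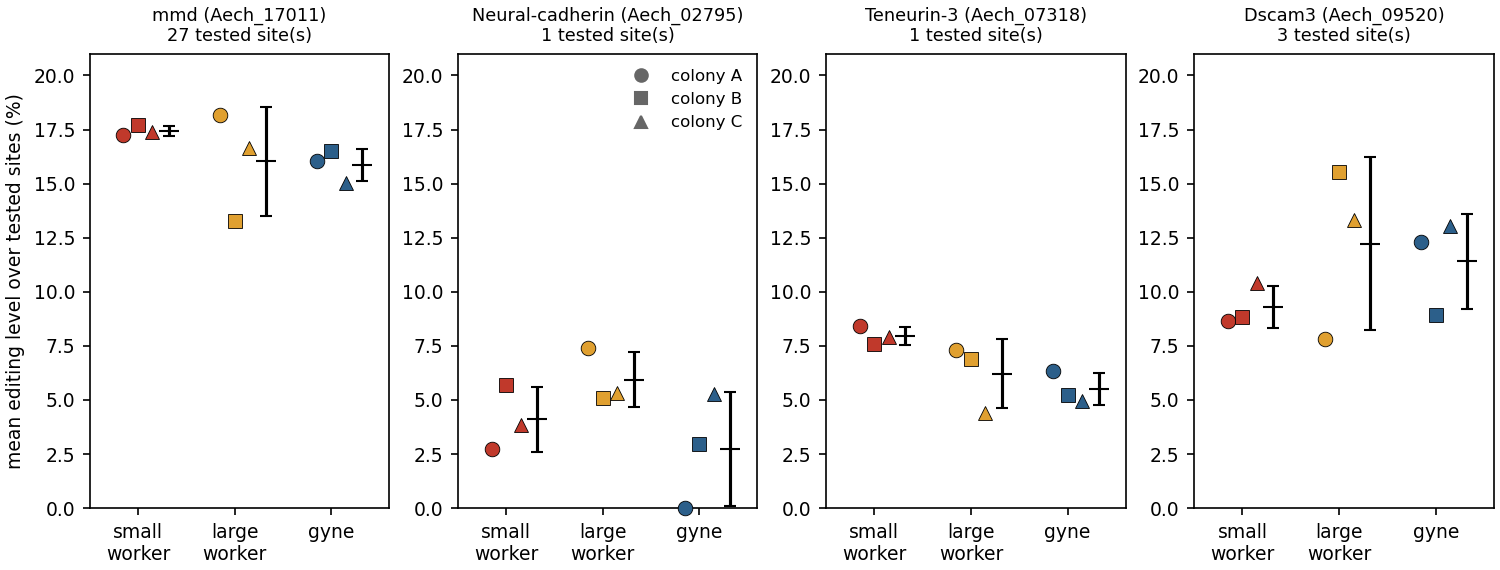
Mean editing level in percent over the tested sites of each of the 4 genes in each RNA library, by caste with small workers left, large workers in the middle and gynes right, with marker shapes for colonies and bars for the mean ± SD of 3 libraries. Small worker and gyne libraries do not overlap in mmd and Teneurin-3 and overlap in Neural-cadherin and Dscam3. All 3 small worker levels lay above all 3 gyne levels in 25.1% of the 700 genes.

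Counts of sites whose castes did not overlap were also set against all tested sites. In 5 of the 32 sites all small worker levels were above all gyne levels and in 1 all were below, against 22.0% and 1.61% of all tested sites. For large workers against gynes 2 were above and 1 below, against 9.83% and 2.15%. For small workers against large workers 4 were above and 0 below, against 12.8% and 2.78%. Each of these counts lay near the share of all tested sites. Depth limits them, since only 5 of the 32 sites had at least 20 reads in every library. Small workers were on average above gynes in 70.9% of the 700 genes, and among the 4 in mmd, Neural-cadherin and Teneurin-3 but not in Dscam3.

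Other genes of cell adhesion, axon guidance and synaptic partner recognition, matched by name, gave few tested members. With 3 of the 4 genes, that list counted 14 genes in the table and 7 tested. Of the 4 tested genes besides, 3 were higher in small workers than in gynes and 1 lower, where 70.9% of the 700 genes were higher. Among the 3, Aech_04576 was higher by only 0.0114 points. Limma called 0, and 1 had an unadjusted p under 0.05, as 20.4% of the 700 genes had. For large workers against gynes 1 was higher and 3 lower, where 61.4% of the 700 genes were higher. Limma called 0 there, and 0 had an unadjusted p under 0.05. For small workers against large workers 3 were higher and 1 lower, limma called 0, and 2, tutl and Integrin alpha-PS2, had an unadjusted p under 0.05, against 11.7% of the 700 genes. The gene with an unadjusted p under 0.05 for small workers against gynes and also against large workers was tutl (Aech_07123), the immunoglobulin protein turtle. Its 17 sites in the 3′ UTR stood at 14.7% ± 0.545 in small workers, 9.45% ± 1.32 in large workers and 8.58% ± 1.22 in gynes (SD, n = 3 each, limma adjusted p = 0.114 for small workers against gynes). Integrin alpha-PS2 (Aech_10706), a receptor for extracellular matrix, had 12.03% ± 3.16 in small workers, 5.61% ± 1.47 in large workers and 7.18% ± 2.81 in gynes over 8 sites (limma adjusted p = 0.306 for small workers against gynes). A further gene annotated as Teneurin-3, Aech_08864, paired with Drosophila Ten-a, had 2 intronic A-to-G sites at a summed level of 23.02% that were too thinly read for a test. Among metalloproteinases 4 genes were in the table and 2 tested, mmd and Nep4 (Aech_12842), annotated as endothelin-converting enzyme 1. Nep4 stood at 24.0% ± 0.738 in small workers, 25.2% ± 1.22 in large workers and 23.2% ± 0.850 in gynes over 17 tested sites (limma adjusted p = 0.886 for small workers against gynes).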

How the data were processed

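Per the file headers the authors' table gives, for each site, its scaffold position on assembly Aech_2.0, the strand, the change, the annotation and, for each of the 9 RNA and 9 DNA libraries, the deposited read counts of each base in 1 cell, with the base's letter beside its count. BWA 0.5.9-r16 is named in the submitters' processing notes, and no source used here gives the rules by which sites were called. The 4 genes and the gene lists were chosen with earlier results of these data known. The sites named were all sites of genes with 8 or fewer, all UTR or coding sites, and in each gene the tested sites with the highest mean level, the largest difference between small workers and gynes and the most reads. Further sites, those of the close pairs and runs, those without overlap and Dscam3 11318, were chosen after their values were seen.

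Edited and other reads of a site entered a quasi-binomial logistic regression on caste (R 4.3.3), with a dispersion moderated by limma 3.58.1 (squeezeVar, which gave all sites 1 value, 1.88) and kept at 1 or above. It ran over the 5720 sites whose 9 RNA libraries each had 10 reads or more, with Benjamini-Hochberg adjustment at 0.05. Own dispersions of the 32 sites of the 4 genes ran from 0.435 to 4.59, above 1.88 in 12. The highest was that of 40991, and 41005 had 2.15, so their p-values rest on a smaller spread than their own. Site 40968 had 0.766, so its p-value rests on a larger one. At a minimum of 5 reads 11318 had 2.72 where 1.81 was used. Gene levels were means over tested sites, tested with limma after an arcsine-square-root transformation over 700 genes. Their intervals come from limma on untransformed levels. Clusters were split at gaps over 500 bases. Python 3.11.15 with SciPy 1.17.1, pandas 2.3.3 and matplotlib 3.10.9 made tables and plots.

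The colony pairs the libraries, since the labels give its identifier. Deviations from caste means correlated within colonies with r from −0.00696 to 0.0512 and between colonies with r from −0.0394 to 0.0319. Alternatives were read minimums of 5 and 20, a replicate block, a robust dispersion, levels relative to the overall shift (each library's mean over genes, or over tested sites as an offset in the site model), limma on site levels, summed reads per gene, and leaving out each library. No genome was used, so no sequence is shown.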

Additional observations from a re-analysis of the deposited data

How the results depend on the processing

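The sites of the 4 genes that met the read minimum numbered 32, or 43 at a minimum of 5 reads and 5 at 20 reads, and 0 of them passed in any caste contrast under each of the 15 alternatives. Of the 4 genes 0 passed under theirs, with a smallest adjusted p of 0.190. With the replicate block the adjusted p of 40968 for small workers against gynes was 0.229, and the small worker minus gyne difference of mmd stayed at 1.58 points (adjusted p = 0.773). Background calls over all sites moved more. For small workers against gynes they numbered 471 of 5720 in the reported fit, 0 with the replicate block, 0 with limma on site levels and 95 relative to the overall shift, and they were 281 without gyne B and 293 without gyne C. For large workers against gynes they numbered 27, against 5 without large worker A, 8 without gyne C and 6 relative to the overall shift. For small workers against large workers they numbered 50, against 12 without large worker C, 22 without large worker B, 23 without small worker C, 32 without small worker A and 7 relative to the overall shift. For any difference they numbered 365, against 228 without gyne B, 239 without gyne C and 71 relative to the overall shift. Gene calls for small workers against gynes numbered 16 of 700 in the reported fit. They were 0 with the replicate block, 1 relative to the overall shift and 44 on untransformed levels. When single libraries were left out they ran from 0 (without gyne C) to 41 (without large worker B).

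Of 177 alternative values of the 12 gene differences, 18 changed sign, none of them past a threshold. Relative to the overall shift, the mean over all genes in each library, small workers minus gynes became −1.16 points in mmd, −1.39 in Neural-cadherin and −0.290 in Teneurin-3. Large workers minus gynes became −1.09 in mmd, −0.555 in Teneurin-3 and −0.446 in Dscam3, and small workers minus large workers −0.0703 in mmd. At a minimum of 20 reads the mmd differences were −1.95 for small workers against gynes, −1.60 for large workers against gynes and −0.353 for small workers against large workers, over 3 sites. Dscam3 had no site there. At a minimum of 5 reads, large workers minus gynes were −0.0915 in mmd and −1.32 in Dscam3. The cause was not tested.

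Leaving out single libraries moved large workers minus gynes in mmd between −0.894 (without large worker A) and 1.55, negative also without large worker C or gyne C. In Dscam3 it moved between −0.844 (without large worker B) and 3.03, negative also without gyne B. Small workers minus gynes in Neural-cadherin moved between −0.0241 (without gyne A) and 2.61. In these genes levels in gynes and in large worker B rest on the fewest reads, and whether depth moved the signs was not tested.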

Other observations

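The genes whose mean level ran most like that of each of the 4 genes across the 9 RNA libraries were listed as a description, over genes with at least 3 tested sites and with no test. For mmd they were Aech_08490, annotated as a moesin/ezrin/radixin-like protein, with Pearson r of 0.865, the amino acid transporter gene CG13248 (Aech_10700) with 0.863 and the helicase gene abs (Aech_02770) with 0.839, among 229 genes. For Teneurin-3 they were Cdk9 with 0.904, Mlf with 0.901 and bsk with 0.901, among 230 genes. For Dscam3 they were Rab3 with 0.729, the potassium channel gene Shaw with 0.686 and the muscarinic receptor gene Aech_16950 with 0.650, among 229 genes. For Neural-cadherin they were Aech_16298 with 0.778, HBS1 with 0.7004 and RhoGEF3 with 0.643, among 230 genes. The 9 points of each r share library depth and caste, and 3 of them come from each caste.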
